A study of Dreissena polymorpha with 12 samples.

Results

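The zebra mussels (Dreissena polymorpha) of Faio, 1 of 5 sampling sites on the Ebro River, were compared with those of the 4 other Ebro sites, Mequinenza, Riba Roja, Flix Reservoir and Flix Factory. The comparison was defined by the population label of the samples and by no measured value. It set the 2 Faio arrays against 8 arrays of the other Ebro sites, out of 12 arrays in the series. The remaining 2 arrays came from Sitjar, a dam 200 km from the river, and entered the filter on dim probes, the scaling and the estimate of the spread, but not the difference itself. All groups were mussels collected in spring, no experimental treatment is described, and site was the only factor that the labels give. Each array held RNA of 5 pooled individuals. The labels name gills as the tissue, but the collection text speaks of a part of the whole body, so the tissue is not settled. The labels give no age for the animals. No tissue marker could be looked up, because the array gives accession numbers in place of gene names, with RXR as the single symbol.

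The zebra mussel is an invasive freshwater bivalve that anchors itself to hard surfaces with byssal threads and filters large volumes of water through its gills. The gills serve for gas exchange and for catching food particles, and they are in direct contact with whatever the water carries, which is why such mussels are used to monitor rivers. The Ebro sites lie on a chain of dammed stretches, with Mequinenza upstream of Faio, and Riba Roja and Flix downstream. The comparison asks which transcripts set the Faio population apart within the river.

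The array held 3541 sequences, each covered by several probes and named by an accession number. A sequence was measured here where at least 1 of its probes was well above background on all 12 arrays, and its log2 signal was the mean over those probes, quantile normalised between arrays. This left 1226 sequences, measured by 2806 probes. Differences are given on this log2 scale, so that a difference of 1 is a 2-fold change in signal. The share of probes well above background was 30.8% on Faio replicate 1 and 26.1% on Faio replicate 2, and between 22.5% and 34.7% over all 12 arrays. Slide 1 carried replicate 1 of every site, and slide 2 carried replicate 2. Slide differences were large (523 of the 1226 sequences in limma, adjusted p under 0.05), and the slide was therefore a block in the fits reported here, unless stated otherwise. On the second principal component, Mequinenza replicate 2 (16.1) and Faio replicate 1 (12.98) had the highest scores. Mequinenza replicate 1 scored 8.12 and Faio replicate 2 scored 3.18, so the replicates of these sites also differed from each other. A site kept its place on both slides, and for that reason the effects of site and of array position cannot be told apart.

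At Faio, 12 of the 1226 sequences (0.979%) differed from the mean of the 4 other Ebro sites at an adjusted p under 0.05 (limma with the slide as a block, Benjamini-Hochberg adjustment over all 1226). Of these, 4 were higher at Faio (0.326%) and 8 were lower (0.653%). The higher sequences were AJ517553, AJ517622, EY435827 and EY435610. The lower ones were AJ517619, EY436647, EY435095, EY435003, EY434506, EY435668, EY434289 and EY436806. Ranked by mean signal over the 12 arrays, the called sequences had a median percentile of 23.9 among the 1226. EY435610 (percentile 1.39), AJ517622 (5.71), EY436647 (8.32) and EY435668 (9.71) were near the dim end. The absolute log2 differences ran from 0.74 to 2.26 with a median of 1.01, against a median of 0.21 over all 1226 sequences, and 6 of the 12 exceeded 2-fold. A sequence can be lower, for example, because fewer cells of a type were in the pool or because each cell held less of the RNA. The array cannot tell these apart, and other reasons are possible.

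**Figure D1:**
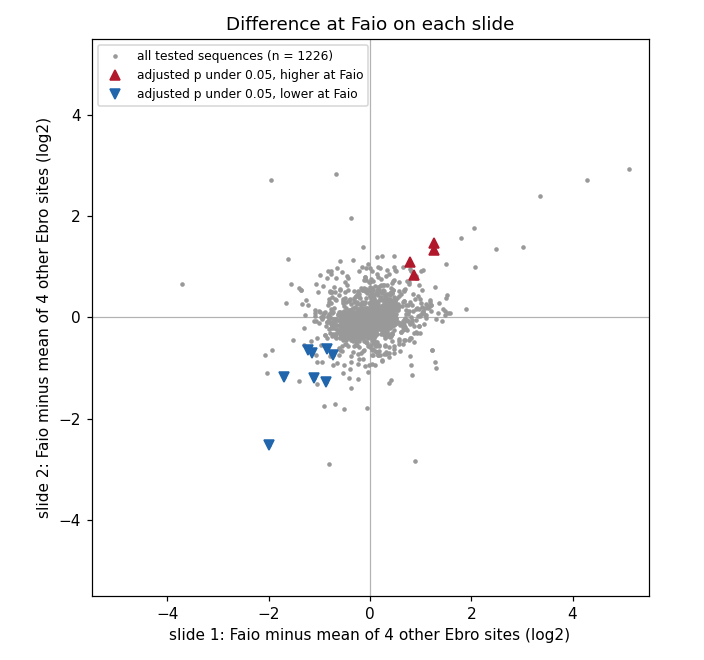
Each point is 1 of the 1226 tested sequences, with the log2 difference between Faio and the mean of the 4 other Ebro sites on slide 1 (horizontal) and slide 2 (vertical). The 4 sequences called higher (upward triangles) and the 8 called lower (downward triangles) lie on the same side of 0 on both slides, and several uncalled sequences lie farther out on the upper right.

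The sequence that fell most among the called ones was AJ517619. Its signal at Faio was 12.19 on replicate 1 and 11.71 on replicate 2. At the other sites it was 12.98 and 13.27 at Mequinenza, 15.29 and 14.61 at Riba Roja, 13.98 and 14.70 at Flix Reservoir, and 14.52 and 14.34 at Flix Factory. Both Faio arrays were below all 8 others, with Mequinenza the nearest site. This gave a difference of -2.26 in log2 (SE 0.33, limma adjusted p = 0.0303), a 4.78-fold lower signal. All 5 probes of AJ517619 were tested and all were lower at Faio, by -1.70 to -2.60 in a fit on single probes. On the Sitjar arrays the signal was 12.50 and 13.67.

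EY435003 was the other lower sequence that rested on 5 tested probes. It measured 8.02 and 7.98 at Faio, which was the lowest site on both slides. The other Ebro arrays ran from 8.43 on Flix Factory replicate 1 to 9.54 on Flix Reservoir replicate 2. The log2 difference was -1.08 (SE 0.15, limma adjusted p = 0.0197). It was -0.88 on slide 1 and -1.28 on slide 2. The 5 single probes gave differences of -0.79 to -1.20, and 3 of them passed the threshold on their own.

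EY434289 and EY436806 had smaller decreases and moved with the slide. EY434289 measured 10.97 and 11.82 at Faio, and 11.33 to 11.95 on slide 1 and 12.15 to 12.79 on slide 2 at the other Ebro sites. EY436806 measured 10.33 and 11.08 at Faio, and 10.90 to 11.44 on slide 1 and 11.44 to 11.94 on slide 2 at the others. Within each slide Faio was the lowest of the 5 sites for both sequences, although the groups overlapped when the slides were mixed. The log2 differences were -0.74 for each (SE 0.12 for each, limma adjusted p = 0.0360 for each). Both sequences had 2 tested probes, and both probes were lower at Faio. A further probe of EY436806, above background on 7 of the 8 other arrays and therefore not tested, differed by -0.11 with an SE of 1.14. It read 4.97 on Mequinenza replicate 2 and 9.81 to 10.79 on the other 7 arrays, against 9.36 and 9.82 at Faio.

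The remaining 4 lower sequences, EY436647, EY435095, EY434506 and EY435668, each rested on 1 tested probe. EY436647 measured 6.78 and 6.81 at Faio, 8.42 and 7.79 at Mequinenza, 8.62 and 7.97 at Riba Roja, 7.84 and 7.14 at Flix Reservoir, and 9.01 and 9.03 at Flix Factory. Faio was below all 8 other Ebro arrays, closest to Flix Reservoir and farthest from Flix Factory, while the Sitjar arrays were near Faio at 6.98 and 6.93. Its log2 difference was -1.44 (SE 0.19, limma adjusted p = 0.0197). EY435095 measured 8.13 and 8.66 at Faio and 8.76 to 10.22 on the other Ebro arrays, with a log2 difference of -1.15 (SE 0.14, limma adjusted p = 0.0197). The groups did not overlap, and Flix Factory was the nearest site.

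EY434506 was even across the other sites. It measured 7.27 and 8.16 at Faio and 8.41 to 8.90 on the 8 other Ebro arrays (SD 0.19, n = 8). The log2 difference was -0.93 (SE 0.15, limma adjusted p = 0.0360), and it lay between -0.84 and -0.98 against each of the 4 sites. The decrease on slide 1 was -1.22 and on slide 2 -0.64, so the size differed between the slides. An untested probe of EY434506, CUST_1324_PI415929191, above background on 1 Faio array and 7 of the 8 others, also had a negative difference (-1.96, SE 0.26). EY435668 also had unequal decreases on the slides (-1.14 and -0.70), with 6.53 and 7.78 at Faio and 7.32 to 8.97 on the 8 other arrays. Its difference was -0.92 (SE 0.16, limma adjusted p = 0.0438).

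The probes of EY435668 did not run the same way. Its tested probe, CUST_4907_PI415929191, was the lower one. Another probe of the same sequence, CUST_4905_PI415929191, was well above background on both Faio arrays and on none of the 8 other Ebro arrays. Its signal, on a scale normalised over all probes of the array, was 5.15 and 7.91 at Faio and averaged 2.87 on the others. The other 3 probes of EY435668 were above background on no array. Whether the sequence as a whole was lower at Faio is therefore not settled by these probes. EY436647 had a similar limit, since of its 2 untested probes 1 was above background on Faio replicate 1 alone and the other on no array.

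Among the higher sequences, AJ517553 measured 14.95 and 15.18 at Faio, 13.72 and 13.85 at Mequinenza, 14.22 and 14.52 at Riba Roja, 14.05 and 14.40 at Flix Reservoir, and 14.34 and 14.59 at Flix Factory. Both Faio arrays were above all 8 others. The log2 difference was 0.85 (SE 0.11, limma adjusted p = 0.0197), 0.86 on slide 1 and 0.84 on slide 2. All 4 probes were tested and all were higher at Faio, but none passed the threshold on its own (limma adjusted p of 0.0741 to 0.321). The probe CUST_7798_PI415929188 read 10.999 on Mequinenza replicate 2 against 13.98 to 14.70 on the other 7 arrays. The other 3 probes did not drop there, so the low value of AJ517553 on that array came from 1 probe, which also enters the difference on slide 2.

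AJ517622 measured 8.43 and 8.996 at Faio, against 6.74 to 8.03 on the other Ebro arrays. The groups did not overlap, and Flix Factory was the nearest site on both slides. The log2 difference was 1.29 (SE 0.17, limma adjusted p = 0.0197), a 2.45-fold higher signal. It was nearly the same on the slides, at 1.27 and 1.32. Both tested probes were higher, and so were both untested ones, which were above background on 7 of the 8 other arrays and differed by 0.81 and 1.22.

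EY435827 measured 11.88 and 12.19 at Faio and 10.13 to 11.17 on the 8 other Ebro arrays. It was lowest at Sitjar, with 8.98 and 9.59. The groups within the Ebro did not overlap, and the log2 difference was 1.37 (SE 0.22, limma adjusted p = 0.0360). Its 2 tested probes differed by 1.32 and 1.40. EY435610, which rested on 1 tested probe, measured 7.56 and 7.37 at Faio but 7.61 and 6.75 at Mequinenza, so the groups overlapped. EY435610 was also near the Faio level at Sitjar, with 7.57 and 7.28. At Riba Roja and both Flix sites it ran from 5.86 to 6.598, and the log2 difference was 0.94 (SE 0.16, limma adjusted p = 0.0374). Its probe CUST_5304_PI415929188 was above background on both Faio arrays and on no other Ebro array, in the same direction as the tested one. Another untested probe, CUST_5303_PI415929188, was above background on 1 Faio array and on all 8 others, and differed by 0.12 (SE 0.37).

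**Figure D2:**
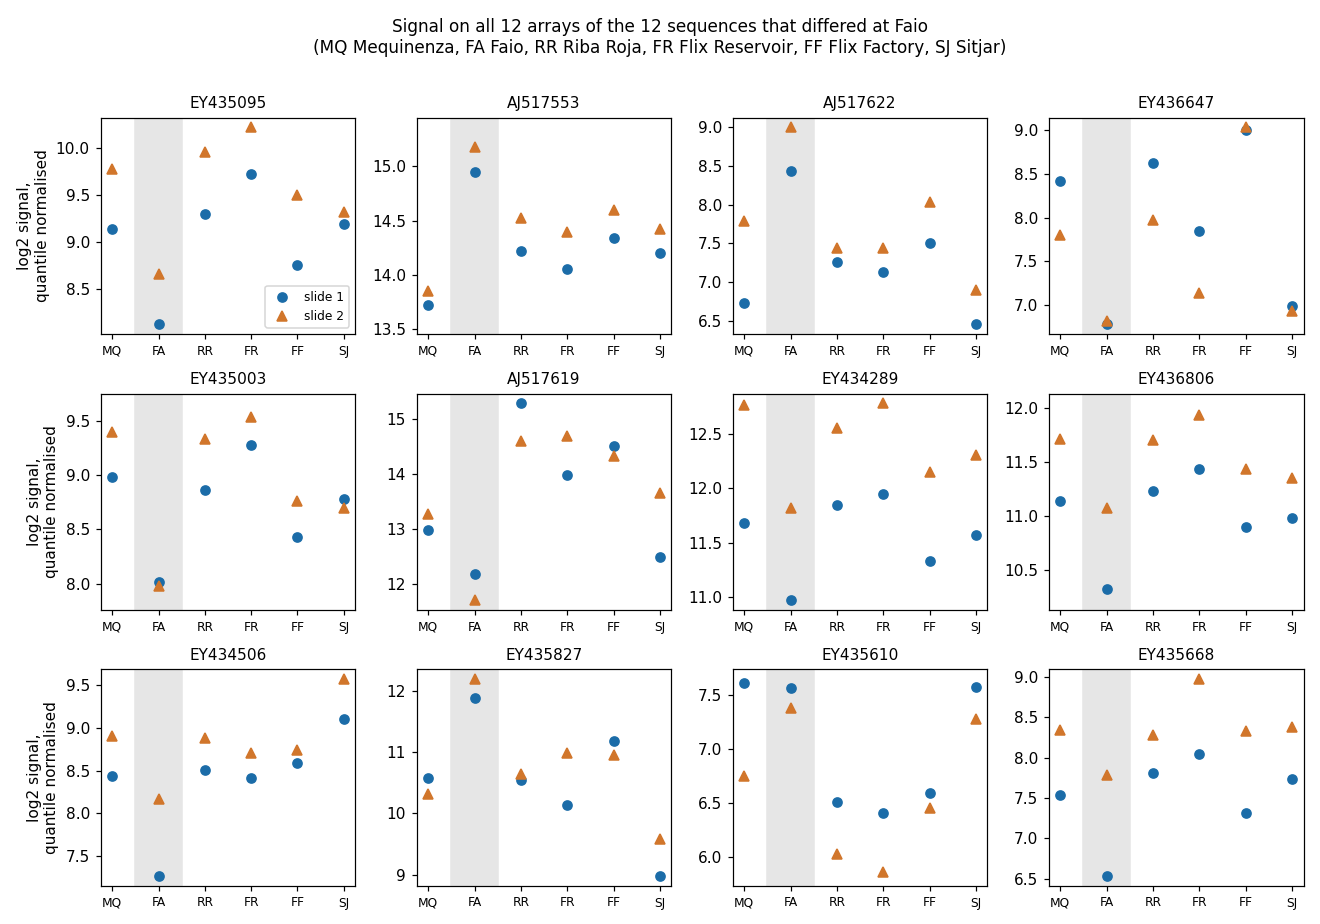
Quantile-normalised log2 signal (vertical) of the 12 called sequences at each site (horizontal), with circles for slide 1 and triangles for slide 2 and the Faio column shaded. In 11 of the 12, Faio is at one end of the 5 Ebro sites on both slides; in EY435610, Mequinenza replicate 1 is level with Faio.

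In 8 of the 12 called sequences both Faio arrays lay outside the range of the 8 other Ebro arrays. Over all 1226 sequences this was so in 62 (5.06%), with 27 above (2.2%) and 35 below (2.85%). After the mean of the 5 Ebro arrays of each slide was subtracted, it was so in 11 of the 12 and in 155 of all (12.6%), with 61 above (4.98%) and 94 below (7.67%). Since the calls favour such sequences, these counts only describe them. All 7 called sequences with more than 1 tested probe had every tested probe on the same side, and the other 5 rested on a single probe, as did 36.4% of all tested sequences. The called value is the mean of these same probes, so their shared side also only describes the calls. The share with full agreement over all sequences is not given here.

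The count of calls rested on most of the arrays. It was 24 without Mequinenza replicate 1, 6 without either Sitjar array, and 0 without either array of Faio, Flix Reservoir or Flix Factory, where between 115 and 218 sequences had an unadjusted p under 0.05 in limma. All 12 sequences kept their direction when any single array was left out, with a median absolute difference of 1.103 without Faio replicate 1 and 1.00 without Mequinenza replicate 2. They were chosen from these same arrays and had the same direction on both slides, so their kept direction is no test. Without the slide as a block no sequence was called (81 at an unadjusted p under 0.05, smallest limma adjusted p 0.192). Instead of 4 higher and 8 lower, the calls divided into 4 and 4 with normexp background correction, 5 and 4 with the authors' values, 8 and 9 with outlier-flagged spots kept, and 1 and 1 with 75th percentile scaling. The labels describe the 2 replicates of a site as pools of 5 individuals, so the p-values measure only the spread between these pools and their arrays. For each sequence the fit used 1 spread for all sites. The median SD between pools was larger at Faio (0.19) and Mequinenza (0.21) than at the other Ebro sites (0.11 to 0.13). With array weights, which were lowest for Mequinenza (0.38) and Faio (0.77), 4 sequences were called.

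Set against each site in turn, Faio differed from Flix Reservoir in 13 sequences (1.06%, with 4 higher, 0.326%, and 9 lower, 0.734%), from Mequinenza in 6 (0.489%, with 3 in each direction, 0.245%), from Flix Factory in 1 (0.0816%) and from Riba Roja in 0 (0%), in the same limma fit. At an unadjusted p under 0.05 the counts were 152, 187, 211 and 188, and the smallest adjusted p against Riba Roja was 0.0528. These counts thus do not order the sites by their distance from Faio. Without either Faio array all 4 counts were 0. The Riba Roja count ranged up to 11 under other settings, and was 2 without Mequinenza replicate 1 and 1 without its replicate 2. The Mequinenza count was 71 without Mequinenza replicate 1, 2 without either Flix Reservoir array, and 0 without Mequinenza replicate 2, either Riba Roja array or either Flix Factory array. The Flix Reservoir count was 8 without Mequinenza replicate 2, 5 without either Riba Roja array, 2 without either Flix Factory array, 1 without Flix Reservoir replicate 1 or either Sitjar array, and 0 without Flix Reservoir replicate 2. The Flix Factory count was 10 without either Riba Roja array, 2 and 3 without Mequinenza replicates 1 and 2, and 0 without either Flix Factory or Sitjar array. The 4 comparisons share the Faio arrays.

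Against Flix Reservoir, AJ517622, EY435610, AJ517553 and AF086634 were higher at Faio, with log2 differences of 1.42, 1.34, 0.84 and 2.45. The lower sequences were AJ517619 (-2.39), AM503947 (-2.03), EY435095 (-1.57), EY435003 (-1.41), EY435668 (-1.35), EY435222 (-1.26), EY436806 (-0.99), EY434289 (-0.98) and EY434287 (-0.83). AM503947 and EY435222, chosen for mention with their values known, had adjusted p of 0.0752 and 0.0717 against the 4 sites together in limma. Against Mequinenza, AJ517622 (1.45), AJ517553 (1.27) and EY435831 (1.00) were higher, and EY433996 (-1.86), EY436759 (-1.61) and EY435003 (-1.20) were lower. EY433996 and EY436759 were likewise chosen with their values known. The value of AJ517553 on Mequinenza replicate 2 includes the low reading of CUST_7798_PI415929188, 10.999 against 14.12 to 14.995 for its other probes. With medians over probes 0 sequences were called against Mequinenza. EY436647 was the single sequence that differed from Flix Factory, at -2.23 (limma adjusted p = 0.0210).

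**Figure D3:**
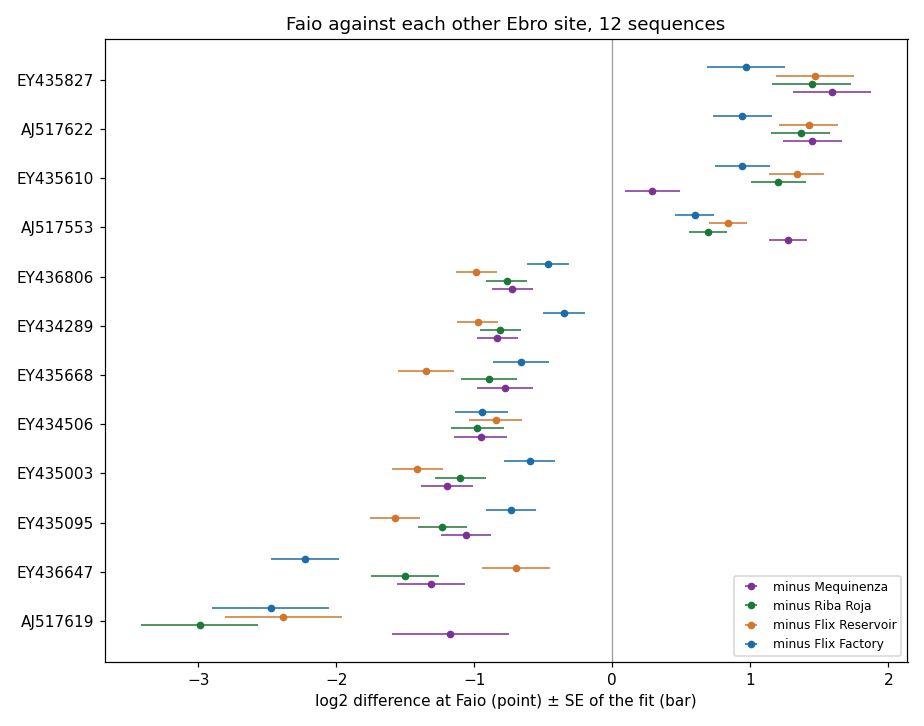
Log2 difference between Faio and each other Ebro site (horizontal; point, with the SE of the limma fit as bar) for the 12 called sequences. The 4 differences of EY434506 lie closest together, while AJ517619 was -1.17 against Mequinenza and -2.99 against Riba Roja.

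Of the 12 sequences, AJ517619 and EY435610 differed least from Mequinenza, at -1.17 and 0.29 (limma adjusted p = 0.239 and 0.534). Flix Factory was the nearest site for 8 of the 12. These were EY435095 (-0.73), EY435003 (-0.60), EY434289 (-0.35), EY436806 (-0.47) and EY435668 (-0.66) among the lower ones, and AJ517553 (0.60), AJ517622 (0.94) and EY435827 (0.97) among the higher ones. Their limma adjusted p against Flix Factory ran from 0.103 to 0.287. EY436647 differed least from Flix Reservoir (-0.70), as did EY434506 (-0.84). The difference between these sites was not tested. The share of all tested sequences with Flix Factory as the nearest site is not given here. The count of 8 therefore only describes the called sequences. Over all tested sequences the median absolute difference from Faio was largest for Flix Factory, at 0.27. It was 0.24 for Mequinenza, 0.24 for Riba Roja and 0.22 for Flix Reservoir.

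The 8 sequences next in order of p did not pass the threshold. Of these, AF086634, EY435457, EY434532, EY435831 and AF086635 had positive and EY435986, EY434287 and EY433901 negative differences. EY435986 measured 7.19 and 7.20 at Faio and 7.60 to 8.19 on all 8 other Ebro arrays, but its difference of -0.77 had an adjusted p of 0.0535 in limma. EY433901 measured 6.88 and 7.05 at Faio, near Mequinenza (7.09 and 6.44) and below the other 6 Ebro arrays (7.99 to 8.55). Its difference from the 4 sites was -0.90 (limma adjusted p = 0.0648) and from Mequinenza 0.20. EY434532 and EY435831 had differences of 0.71 and 0.60 and EY434287 of -0.61 (limma adjusted p of 0.0535 to 0.0666), and for these 3 Faio was at one end of the 5 sites on both slides.

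Differences as large as those called were also found in sequences whose values varied within sites. AF086635 measured 11.30 and 10.94 at Faio, 9.47 and 9.55 at Mequinenza, 7.36 and 10.25 at Riba Roja, 7.69 and 7.39 at Flix Reservoir, and 7.28 and 6.96 at Flix Factory. Both Faio arrays were the highest, but Riba Roja replicate 2 was nearly as high, and the log2 difference of 2.87 had an SE of 0.59 (limma adjusted p = 0.0717). All 5 of its probes had positive differences, from 2.59 to 2.95. AF086634 measured 11.51 and 11.96 at Faio, 10.13 and 10.60 at Mequinenza, 9.08 and 11.11 at Riba Roja, 9.17 and 9.41 at Flix Reservoir, and 9.42 and 9.67 at Flix Factory (log2 difference 1.91, SE 0.34, limma adjusted p = 0.0515). Its 4 probes differed by 1.84 to 2.07.

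AJ517697 and AJ517707, chosen for mention with their values known, had the largest differences of all 1226 sequences. AJ517697 rested on 1 tested probe of 4 on the array, and AJ517707 on 3 of 4. AJ517697 measured 14.02 and 12.97 at Faio, 11.49 and 12.04 at Mequinenza, 8.11 and 13.07 at Riba Roja, 8.80 and 8.72 at Flix Reservoir, and 7.22 and 6.36 at Flix Factory. Its log2 difference was 4.02 (SE 1.08, limma adjusted p = 0.122). AJ517707 measured 13.35 and 12.45 at Faio and 8.66 and 13.33 at Riba Roja, with a log2 difference of 3.50 (SE 1.12, limma adjusted p = 0.187). In both, Riba Roja replicate 2 was as high as a Faio array while replicate 1 was not, and Sitjar showed the same split, with 8.02 and 11.24 for AJ517697 and 7.67 and 11.09 for AJ517707. EY435457 instead overlapped at Mequinenza, with 12.95 and 12.91 at Faio, 11.45 and 12.95 at Mequinenza and 10.51 to 12.12 at Riba Roja and the Flix sites. Its difference was 1.54 (SE 0.28, limma adjusted p = 0.0535).

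**Figure D4:**
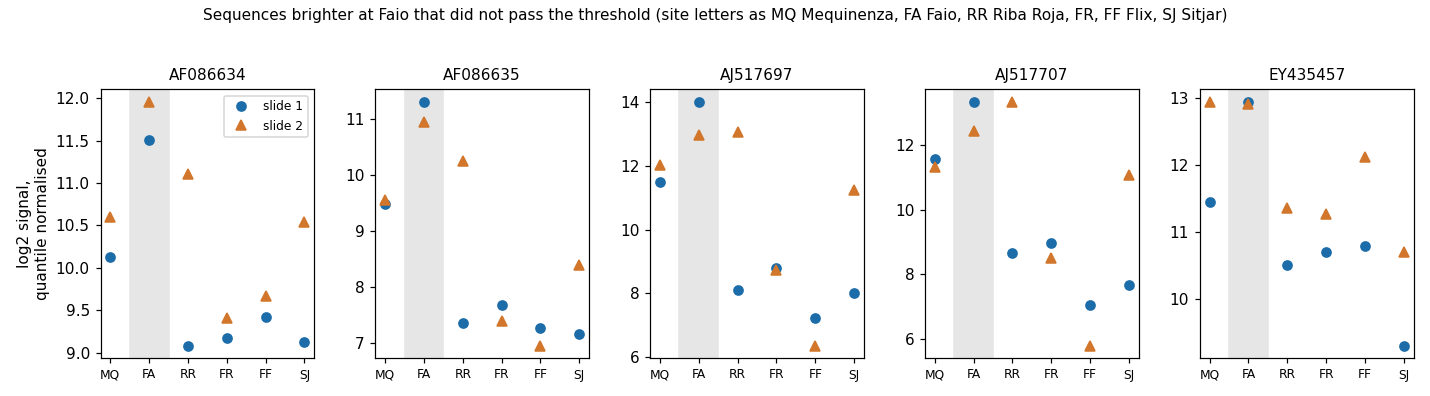
Quantile-normalised log2 signal (vertical) at each site (horizontal) of 5 sequences that were brighter at Faio without passing the threshold, with circles for slide 1 and triangles for slide 2. In the first 4, Riba Roja replicate 2 lies well above replicate 1, as for AF086634 with 11.11 and 9.08.

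Over the whole profile, 216 sequences (17.6%) had an unadjusted p under 0.05 in limma, 97 higher (7.91%) and 119 lower (9.71%) at Faio. The median difference was -0.01, and 601 sequences had a positive difference. Differences over 2-fold in the fit were found in 13 sequences in the positive and 14 in the negative direction. The median 95% confidence interval reached 0.41 to either side of a difference, before adjustment.

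A slide holds 1 array of each site, so the difference at Faio can be read once per slide. The median absolute difference was 0.32 on slide 1 and 0.19 on slide 2. Across the 1226 sequences the differences on the slides had a Pearson correlation of 0.27. This is across sequences, which share their arrays and are no independent replicates, so no test is given. The same measure was 0.53 for Flix Factory, 0.46 for Mequinenza, 0.39 for Flix Reservoir and 0.04 for Riba Roja, each against the other 4 Ebro sites. The spread between the 2 pools, as a median SD after removal of the slide means, was 0.19 at Faio and 0.21 at Mequinenza, and 0.11 to 0.13 at the other 3 sites.

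Faio was the highest of the 5 Ebro sites on both slides in 6.28% of sequences and the lowest in 8.56%, together 182 sequences (14.8%). Mequinenza was highest in 9.71% and lowest in 8.89% (228 together, 18.6%), and Flix Factory in 6.85% and 6.93% (169, 13.8%). Flix Reservoir was highest in 3.51% and lowest in 2.45% (73, 5.95%), and Riba Roja in 3.18% and 4% (88, 7.18%). Faio thus lay between Mequinenza and Flix Factory in this count, and it was at the low end more often than at the high end. Sequences beyond 2-fold on both slides numbered 10 above and 6 below at Faio, 15 and 8 at Mequinenza, and 4 and 10 at Flix Factory. These counts were not tested against each other.

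**Figure D5:**
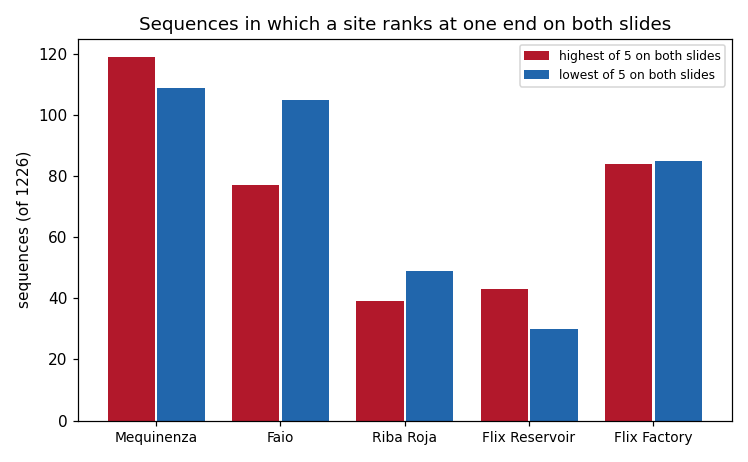
Number of sequences, of 1226, in which a site was the highest (left bar) or the lowest (right bar) of the 5 Ebro sites on both slides. Faio was highest in 77 and lowest in more, Mequinenza was highest in 119 and lowest in 109, and Riba Roja and Flix Reservoir had the fewest.

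The sequence names fall into series of accession numbers, and the files give no function for them. Of the AJ517 series, 64 of 133 sequences were tested, and 2 were called higher and 1 lower (4.69%, against 0.979% over all sequences). This difference in shares was not tested. Differences over 2-fold were found in 4 of the 64 upward and 1 downward. The median difference of the series was 0.0039 and the median absolute difference 0.24, against -0.01 and 0.21 over all sequences. Of the EY434 to EY436 series, 922 of 2513 were tested, with 2 called higher and 7 lower (0.976%, median difference -0.01). None of the 66 tested sequences of the AM229 and AM230 series was called, with a median of 0.03, and 4 and 3 of them had an unadjusted p under 0.05 upward and downward in limma. Over all 1226 sequences 0.979% were called, and 7.91% upward and 9.71% downward had an unadjusted p under 0.05. None of the 2 tested AF508 sequences or the 172 others was called, and of the 172 others 16 had an unadjusted p under 0.05 upward and 11 downward, against 0 of the AF508 sequences.

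Probes outside this filter were compared by detection alone. Of 13506 probes, 5 were above background on all 8 other Ebro arrays and on neither Faio array. They were CUST_1438_PI415929188 of EY436113, CUST_6814_PI415929188 of AM230228, CUST_2776_PI415929188 of EY435444, CUST_4271_PI415929191 of EY434580 and CUST_8796_PI415929191 of EY436799. Their mean signal was at least 1.64 to 2.40-fold lower at Faio, taking the lowest signal well above background on each Faio array as the floor where it was higher than the probe's own. Mequinenza replicate 2 was the highest of the 8 other arrays for each of these 5 probes, at 7.23 to 8.46, and raised the means compared. Single arrays overlapped for EY436799, AM230228 and EY434580. Faio replicate 2 read 5.77, 5.30 and 5.53 for these, against 5.12 and 5.06 on Mequinenza replicate 1 and 5.42 on Flix Reservoir replicate 1. For EY436113 and EY435444 both Faio arrays were below all 8 others. The same pattern was found for 2 probes at Mequinenza and for 0 at each of the other 3 Ebro sites. The opposite pattern, above background on both arrays of 1 site and on no other Ebro array, was found for 9 probes at Faio, 11 at Flix Factory, 7 at Flix Reservoir, 6 at Mequinenza and 0 at Riba Roja. Detection depends on the share of probes above background on an array, which was lower on Faio replicate 2 and on Mequinenza replicate 2 than on the other Ebro arrays, and the part of this in the counts was not tested.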

How the data were processed

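Each pool gave 500 ng of total RNA, which was amplified and labelled with Cy3 for 1 Agilent array with a single colour, per the labels' protocols. Spot intensity values were made with Agilent Feature Extraction 10.5.1.1, per the file headers, whereas the submitters' processing notes name version 9.5. The deposited processed signal is background-subtracted and detrended within an array and not scaled between arrays. The scanner software's flags (0 or 1) for spots well above background, saturated and outlier spots were deposited with it. The authors' deposited value table, used only as an alternative, holds log2 values of 14996 spots. Against the log2 processed signal its correlation was 0.985 to 0.9999 and its slope 0.93 to 1.20, with medians of 2.93 and 3.13 (Riba Roja), 2.99 and 3.06 (Flix Reservoir), 3.01 and 3.09 (Flix Factory), 2.99 and 3.26 (Mequinenza), 2.99 and 3.01 (Faio), and 2.93 and 2.94 (Sitjar). How it was centred and normalised is unknown here.

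From 15744 spots, 536 controls and all outlier-flagged spots were left out, and no spot was saturated. Copies of a probe were averaged, and a probe with a share of copies above background over 0.5 counted as above background. Probes above background on all 12 arrays were averaged per sequence in log2 and then quantile normalised over the sequences. A single limma model over the 12 arrays (limma 3.58.1 under R 4.3.3) held the 6 sites and, as a block, the slide. The script was tested on simulated data. Per the file headers, replicate 1 and replicate 2 were on different slides. Over the 15 pairs of sites, deviations of same-numbered arrays from their site means had correlations of 0.46 to 0.75, so the numbers pair the samples through the slide. The comparison, the lists and the rule for named sequences were chosen with earlier results of these data known. The rule named all called sequences up to 30, filled to 20 by lowest p, and RXR where it passed the filter. It also named up to 5 probes of each detection pattern. Alternatives changed the scaling, background correction, filter, summary per sequence, weights, block and arrays used. The files hold no mean signal, so normexp (offset 50) used the median signals, a choice made after seeing the files. The number of arrays limits the precision.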

Additional observations from a re-analysis of the deposited data

Results flagged for a closer look

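Of the 9 probes that were well above background on both Faio arrays and on no other Ebro array, the 5 with the highest lower bound on the fold are given here (by measured means the order would differ), because they carry a signal outside the sequences tested above. None of them was tested. Each bound is for the mean over the other Ebro arrays. On Mequinenza replicate 2 the lowest signal well above background was 6.69, above the Faio mean of each of these 5 probes. Non-detection there therefore gives no bound for that array alone. CUST_3850_PI415929188 of EY436789 was at least 3.38-fold brighter at Faio than the mean of the other Ebro arrays. It read 5.81 and 7.55 on the Faio arrays on the scale normalised over all probes. CUST_10544_PI415929191 of AM229964 was at least 3.33-fold brighter by the means. Mequinenza replicate 2 nevertheless read 6.47 without being called above background, higher than Faio replicate 1 at 6.30. CUST_4905_PI415929191 of EY435668 was at least 3.05-fold brighter, while the tested probe of that sequence was lower at Faio. CUST_10120_PI415929191 of AM230313 was at least 2.63-fold brighter and was also above background on 1 Sitjar array. CUST_9788_PI415929191 of EY436463 was at least 2.37-fold brighter, with 5.81 and 6.52 at Faio and 2.73 to 2.84 on the other Ebro arrays. Each of these 5 was the only probe of its sequence with this pattern.

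No array stood apart from the other 7 among the 8 arrays of the other Ebro sites in any of the 20 sequences named by the rule, by Dixon's criterion. Groups of 2 arrays, such as Faio, cannot be examined in this way. The 20 sequences were chosen by low p, which favours a small spread, and the 8 values mix sites and slides. The absence of flags therefore cannot clear any array. On Mequinenza replicate 2 a tested probe of AJ517553 read 10.999, well below its readings on the other 7 arrays. An untested probe of EY436806 read 4.97 there, also well below the other 7.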

How the results depend on the processing

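The counts of called sequences (limma, adjusted p under 0.05) depended on the settings. For Faio against the 4 other Ebro sites the count of 12 was 0 with no replicate block, 2 with 75th percentile scaling, 4 with probes above background at 1 Ebro site or more, 0 with no filter on dim probes (342 at an unadjusted p under 0.05), 4 with array weights and 6 with the 10 Ebro arrays alone; under the other 8 alternatives it was 8 to 17. Without single arrays it ran from 0 to 24. Against Mequinenza the count of 6 was 0 with no replicate block, 75th percentile scaling, no filter, medians over probes or array weights, 1 with quantiles over all probes, and 2 with limma-trend or the Ebro arrays alone (0 to 71 without single arrays). Against Flix Reservoir the count of 13 was 0 with no replicate block or the 1-site filter, 1 with 75th percentile scaling, no filter or the Ebro arrays alone, and 8 with limma-trend (0 to 18). Against Flix Factory the count of 1 was 0 with no replicate block, normexp, no filter or the Ebro arrays alone, 4 with 75th percentile scaling, 3 with the 1-site filter and 2 with single probes (0 to 10). Against Riba Roja the count of 0 was 1 with 75th percentile scaling, 3 with quantiles over all probes, the authors' values or the 1-site filter, 7 with medians, 11 with single probes or array weights, and 9 with outlier spots kept or limma-trend (0 to 2). With no replicate block, 81, 77, 50, 82 and 65 sequences had an unadjusted p under 0.05 in the same order. With 75th percentile scaling the median difference from Flix Factory over all sequences moved from -0.03 to 0.12.

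The 12 called sequences, chosen from these same data, kept their direction under every alternative but those that admitted probes outside the filter. With the 1-site filter EY435668 turned to 1.505, and with no filter it was 0.54 and EY436647 was 0.081. In these settings untested probes entered their means. For EY435668 these included CUST_4905_PI415929191, which was above background on both Faio arrays. It differed by 3.66 (SE 0.74) on the scale normalised over all probes. Of the 12, 11 were again called with quantiles taken over every probe, 8 when the authors' table was used, 7 with normexp, 9 with limma-trend, 6 with the Ebro arrays alone, 4 with array weights, 2 with 75th percentile scaling, 1 with the 1-site filter, and 0 with no filter or no replicate block. All 12 were called with medians over probes, with outlier spots kept and with the filter on the 10 Ebro arrays. With normexp the 4 dimmest called sequences had smaller differences. EY435610 was 0.55, EY435668 -0.59 and EY436647 -1.01 (limma adjusted p = 0.148, 0.148 and 0.0770). AJ517622 was 1.02 and was still called (limma adjusted p = 0.0369). Single probes give no value per sequence. The cause of the other changes was not tested, except that leaving out arrays also leaves fewer arrays to estimate the spread.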

Other observations

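RXR, the retinoid X receptor, a nuclear receptor that pairs with other receptors to bind DNA, was represented by 6 probes, none of which passed the filter. The most often detected one, CUST_2_PI415987745, was above background on 1 of 2 Faio arrays and on 7 of the 8 other Ebro arrays. Its mean was 4.96 at Faio and 5.33 at the others, on the scale normalised over all probes (difference -0.37, SE 0.51).

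AJ517583, singled out after its values were seen, was brighter at Faio than on any other array of the series. It measured 16.56 and 16.17 at Faio, 13.29 to 15.54 on the other Ebro arrays, and 13.78 and 13.50 at Sitjar. Its log2 difference of 1.69 (SE 0.37) did not pass the threshold (limma adjusted p = 0.0811).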
